A study of Mus musculus with 27 samples.

Results

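The regions described are 1137 tiles of 1000 bases on the mouse autosomes that carried both histone H3 trimethylated at lysine 4 (H3K4me3) and substantial DNA methylation. A tile was kept when at least 3 of its cytosines had a coverage of 10 or more calls in all 6 bisulfite libraries, when it overlapped a peak in all 5 H3K4me3 lists, and when its mean methylation over the 6 libraries was 30% or more. Of 89375 covered tiles, 19686 overlapped H3K4me3 peaks in all 5 lists, and the 1137 methylated ones were 5.78% of these and 1.27% of all covered tiles. Another 17256 of the tiles marked in all 5 lists had under 10% methylation and 1293 had 10 to 30%. The members were thus chosen by their measured methylation (freqC) and their H3K4me3 peaks, and both are given as descriptions.

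The study compared B220+ cells, B220 being a surface form of CD45 found on B cells, between 2 kinds of tumour in the VavP-Bcl2 lymphoma model. The SHMT2 group carried MSCV-SHMT2, a retroviral construct for the mitochondrial serine hydroxymethyltransferase, which hands the carbon of serine to folate, and the control group, called vector here, carried an empty vector. All groups shared the VavP-Bcl2 transgene, in which a promoter active in blood cells drives the survival gene Bcl2. For RNA and chromatin the labels describe blood stem cells of E13.5 fetal liver, infected and placed in irradiated wild type hosts, with B cells later taken from the spleen. They do not describe these steps for the bisulfite samples, whose extraction label tells of amplified fragments sequenced directly after bisulfite treatment and not of a reduced representation library, and the transfection labels of SHMT2 bisulfite replicates 2 and 3 read SHMT3 and SHMT4. Enhanced reduced representation bisulfite sequencing (ERRBS) and RNA-seq each had 3 SHMT2 and 3 vector libraries, and the H3K4me3 lists came from 3 SHMT2 and 2 vector libraries. No label ties a library to its own animal or says that equal numbers in different assays name 1 animal, so every p-value rests on a spread between libraries that could be technical alone.

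H3K4me3 is laid down at gene starts by complexes that include the CpG-binding protein Cxxc1 (CFP1), which prefers unmethylated CpG. The ADD domain of the de novo DNA methyltransferases binds histone H3 only where lysine 4 is unmethylated. The 2 marks therefore usually exclude each other on 1 DNA molecule. A known exception in bulk tissue is the imprinted gene, where the copy from 1 parent is methylated and the copy from the other carries H3K4me3, so that a mixture of both alleles shows both marks. At the border of a peak the marks can also lie side by side.

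The starts of 177 annotated genes lay inside members, where a gene without a stranded start was placed by either end of its span. For 87 genes with a stranded start, 97 promoter windows of 300 bases (250 before the start, 50 after) could be read. They came from RefSeq on GRCm38.p6, the build also called mm10. They held a median of 10 CpG, against 24 in windows around starts inside H3K4me3-marked tiles under 30% and 7 in all autosomal windows. Summed over the windows of members there were 435 measured cytosines, those in overlapping windows being counted more than once. The 5 windows shown were chosen because they hold the kinds of case met in the values that follow, and capitals mark each CpG measured in all 6 libraries.
Plagl1, chr10:13090582-13090881, plus strand: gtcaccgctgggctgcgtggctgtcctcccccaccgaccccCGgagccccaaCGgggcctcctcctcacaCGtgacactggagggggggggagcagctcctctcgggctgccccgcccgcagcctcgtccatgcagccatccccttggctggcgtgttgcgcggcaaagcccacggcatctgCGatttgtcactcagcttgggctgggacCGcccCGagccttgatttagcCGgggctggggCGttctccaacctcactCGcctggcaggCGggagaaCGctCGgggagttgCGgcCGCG
Zrsr1, chr11:22971755-22972054, plus strand: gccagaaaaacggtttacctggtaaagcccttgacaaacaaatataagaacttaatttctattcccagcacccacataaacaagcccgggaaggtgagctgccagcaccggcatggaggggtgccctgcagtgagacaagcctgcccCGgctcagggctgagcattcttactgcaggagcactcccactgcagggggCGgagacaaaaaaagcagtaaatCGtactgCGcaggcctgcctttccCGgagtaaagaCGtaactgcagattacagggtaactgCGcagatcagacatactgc
Igf2r, chr17:12769657-12769956, minus strand: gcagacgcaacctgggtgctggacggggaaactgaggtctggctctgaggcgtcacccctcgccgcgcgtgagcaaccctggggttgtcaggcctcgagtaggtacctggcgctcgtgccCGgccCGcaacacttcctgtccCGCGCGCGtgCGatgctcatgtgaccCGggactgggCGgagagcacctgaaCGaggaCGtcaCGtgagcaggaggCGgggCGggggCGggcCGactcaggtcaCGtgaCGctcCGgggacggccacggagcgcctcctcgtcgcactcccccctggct
Apoe, chr7:19698572-19698871, minus strand: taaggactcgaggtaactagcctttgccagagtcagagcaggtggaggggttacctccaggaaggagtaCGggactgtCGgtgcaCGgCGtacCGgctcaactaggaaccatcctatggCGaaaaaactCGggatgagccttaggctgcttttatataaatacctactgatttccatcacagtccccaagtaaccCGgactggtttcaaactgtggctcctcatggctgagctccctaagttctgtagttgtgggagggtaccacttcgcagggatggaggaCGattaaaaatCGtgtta
Kbtbd4, chr2:90904752-90905051, plus strand: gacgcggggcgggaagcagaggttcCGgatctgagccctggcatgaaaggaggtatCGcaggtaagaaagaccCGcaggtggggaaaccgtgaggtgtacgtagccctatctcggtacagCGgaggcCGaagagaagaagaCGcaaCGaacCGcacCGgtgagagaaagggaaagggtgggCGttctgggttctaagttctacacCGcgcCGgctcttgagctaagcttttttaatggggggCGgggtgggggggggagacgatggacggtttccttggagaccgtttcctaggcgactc

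The Plagl1 window, with 19 measured cytosines, averaged 34.2%, 33.6% and 29.7% in SHMT2 libraries and 41.2%, 37.4% and 36.9% in vector libraries, and its single cytosines lay between 27.7% and 39.2%. The Zrsr1 window, with 9 cytosines, averaged 39.9%, 42.9% and 40.8% in SHMT2 and 45.5%, 41.4% and 38.7% in vector. The Igf2r window, with 28 cytosines, averaged 38.1%, 37.9% and 36.3% in SHMT2 and 33.1%, 27.2% and 30.3% in vector. Plagl1 and Zrsr1 were even along the sequence, and the cytosines of Igf2r ran from 1.23% to 41.1%. At Zrsr1, 8 of the 9 cytosines lay under a peak in all 5 lists, and at Plagl1 and Igf2r 0 did. All 3 are imprinted genes, and only at Igf2r did every SHMT2 library lie above every vector library, while at Plagl1 every one lay below. The Apoe window, the upstream one of a pair of annotated starts, with 12 cytosines, averaged 57.7%, 56.2% and 35.1% in SHMT2 and 34.8%, 12.9% and 18.5% in vector, with single cytosines from 12.1% to 56.1%, and so was uneven both along the sequence and between libraries. The Kbtbd4 window, with 14 cytosines, stood at 0% to 0.34% in SHMT2 and 0.038% to 0.552% in vector although it crossed into a tile at 71.6%, the methylated cytosines of that tile lying downstream of the window. Of the 28 member windows with at least 5 measured cytosines, some of which overlap, 19 averaged 30% or more and 5 averaged under 10%.

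The libraries behind these values were of similar size. Each ERRBS table listed 1330340 to 1424115 cytosines, read on average 63.0 to 71.6 times, and 1211987 autosomal cytosines were shared. SHMT2 ERRBS replicate 2 stood apart: it lay more than 15 points below the median of the 6 libraries in 262 members (23.0%), while each of the other 5 libraries did so in 8 to 44. The H3K4me3 lists held 33313 to 38249 peaks. In the RNA libraries the summed TPM, a length-scaled share of each library's transcripts, of 9 B cell markers was 8620 to 8834 in SHMT2 and 6702 to 9222 in vector, and 0 of the 9 were under 1 TPM in all libraries. Erythroid markers summed to 50.5 to 140 TPM in SHMT2 and to 57.3, 3669 and 708 TPM in vector replicates 1 to 3, and myeloid markers to 229 to 357 TPM in SHMT2 and to 164, 894 and 720 TPM in vector. Hba-a1 and Hbb-b1, the adult globins, were listed at 0 throughout. In bulk samples, fewer cells of a type and less RNA per cell cannot be told apart.

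Most methylated H3K4me3 tiles sat at the rim of a marked region. The merged region, meaning the union of the 5 peak lists, began or ended inside 998 of the 1137 members (87.8%), against 69.2% of the 18549 marked tiles under 30%. The core, meaning the stretch covered by a peak in every list, filled a median of 262 of the 1000 bases in members and 659 in marked tiles under 30%. It filled the whole tile in 32 members (2.81%) and in 10.8% of the marked tiles under 30%. The distance from tile centre to the nearest summit had a median of 517 to 550 bases over the 5 lists in members, against 255 to 284 bases. A summit lay inside the tile in 61.7% of members and 89.0% of marked tiles under 30%. Members also lay in weaker peaks, the median percentile of the authors' fold enrichment within its list being 58.5, against 78.3. They held fewer measured cytosines, a median of 5 against 23, so each level rests on fewer positions.

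Methylation climbed across the border of the peak. The 8404 measured cytosines of members averaged 38.5% inside the core (2868 cytosines), 52.6% where only some lists had a peak (2363) and 75.4% outside all peaks (3173). By distance, cytosines more than 500 bases inside the merged region averaged 39.6% ± 4.56 in SHMT2 and 41.2% ± 1.31 in vector (SD, n = 3 each). In the last 250 bases inside the edge the means were 50.4% ± 3.02 in SHMT2 and 50.2% ± 0.482 in vector, and in the first 250 bases outside they were 69.0% ± 0.899 in SHMT2 and 67.8% ± 0.261 in vector. More than 500 bases outside, they reached 87.8% ± 1.03 in SHMT2 and 87.7% ± 0.356 in vector. The climb from the inner to the outer side was seen in every library of both groups.

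**Figure D1:**
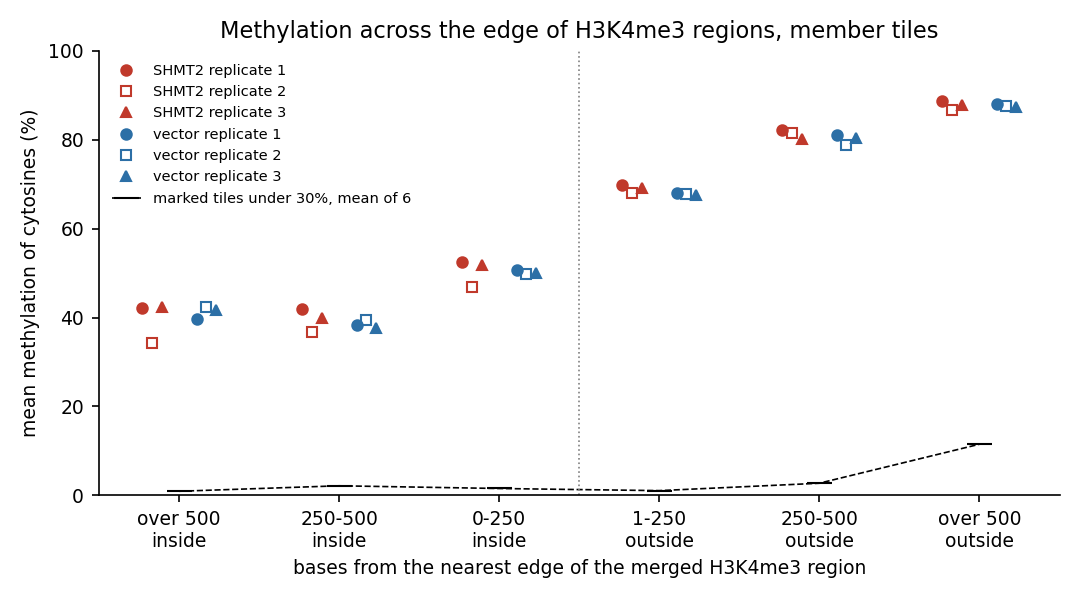
Mean methylation in percent of the measured cytosines of member tiles, by distance in bases from the nearest edge of the merged H3K4me3 region (dotted line), with 1 point per ERRBS library and SHMT2 left of vector. The means run from 39.0% to 50.3% in the 3 bins inside and from 68.4% to 87.7% in the 3 bins outside, while marked tiles under 30% (dashed, mean of 6 libraries) stay between 0.918% and 11.5%.

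Within single tiles the outside was mostly higher too. The rule favours this order, since a tile with a low core can enter only through its other cytosines. In 153 members both core cytosines and cytosines outside all peaks were measured, and the outside was higher in 143 of them, by a median of 66.4 points (core median 13.3%, outside median 83.7%). Where the summit lay outside the member and the adjoining tile towards it was covered, that tile had a median of 0.421% and was under 10% in 307 of 336 cases. The adjoining tile on the far side had a median of 85.4% and was at 30% or more in 55 of 63 cases. Zfp748, a KRAB zinc finger gene, gives an example at chr13:67552001-67553000, where 4 core cytosines averaged 0.534% in a tile whose mean was 47.1%. Pitpnc1, a phosphatidylinositol transfer protein gene, gives another inside the gene at chr11:107468001-107469000, with 4.90% over 4 core cytosines in a tile at 31.6%.

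By where their cytosines lay, the members fell into 4 classes, defined after the values were seen. The core was empty in 18 members, where peaks of the 5 lists met the tile at different places. In 327 members (28.8%) at least 3 core cytosines were measured and averaged 30% or more, which are called core-methylated here. In 87 members (7.65%) the core cytosines averaged under 30% and the level came from outside the core. Another 144 (12.7%) had 1 or 2 core cytosines, and in 579 (50.9%) no core cytosine was measured. For the last class ERRBS therefore gave no reading of the DNA inside the shared peak. The core-methylated class still had an edge inside the tile in 72.8% of cases, held a median of 434 core bases and lay in peaks at a median percentile of 53.5.

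Over all members the groups differed by less than the spread between libraries. Mean methylation was 61.7%, 54.6% and 61.3% in the SHMT2 libraries and 59.4%, 60.6% and 59.2% in the vector libraries, or 59.2% ± 3.99 in SHMT2 and 59.7% ± 0.724 in vector (SD, n = 3 each). SHMT2 replicate 2 was the lowest of the 6, and the other 2 SHMT2 libraries were the highest. The difference of -0.55 points became 1.75 points without SHMT2 replicate 2, and over all covered tiles the means were 57.9% in SHMT2 and 58.4% in vector. No test was made of a mean over chosen tiles.

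**Figure D2:**
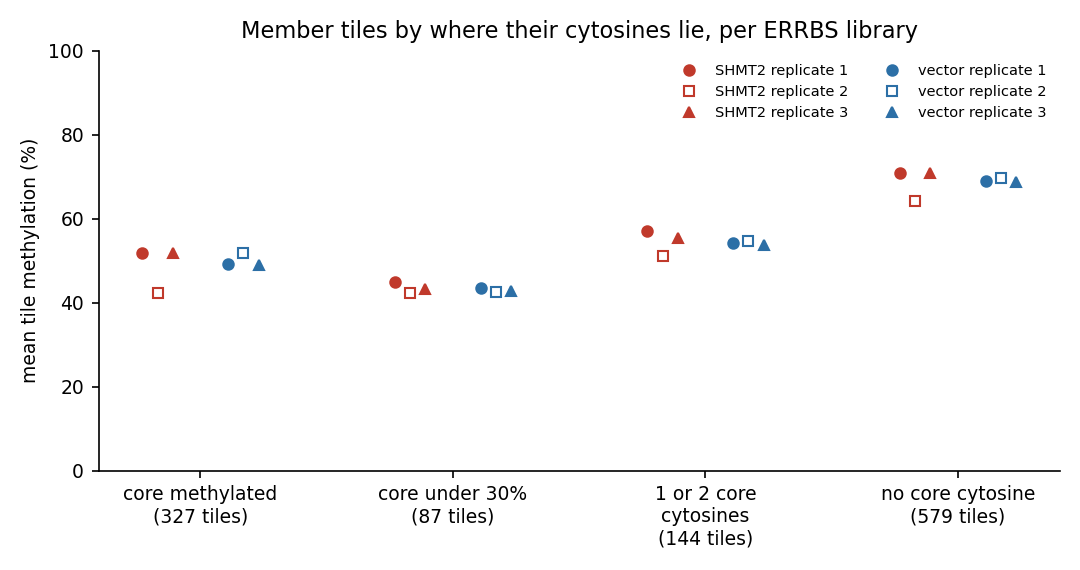
Mean methylation in percent of member tiles in each ERRBS library, by where the measured cytosines lie relative to the stretch shared by the 5 H3K4me3 lists, with SHMT2 left of vector. SHMT2 replicate 2 (open red squares) lies lowest, most clearly in the core-methylated class, at 42.3% against 48.9% to 52.0% in the other 5 libraries.

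The departure of SHMT2 replicate 2 was unequal between the classes. In the 327 core-methylated members the means were 51.8%, 42.3% and 51.9% in SHMT2 and 49.2%, 52.0% and 48.9% in vector, and SHMT2 replicate 2 lay more than 15 points below the median in 118 of them (36.1%). In the 87 members whose core was under 30% the means were 44.9%, 42.4% and 43.3% in SHMT2 and 43.6%, 42.6% and 42.8% in vector, with 5 such tiles. Tiles at 30% or more without any H3K4me3 peak gave 7015 of 59925 (11.7%). The range over the 6 libraries had a median of 30.4 points in core-methylated members, 9.38 points in those with a core under 30%, and 10.9 points in the unmarked tiles. With 1 or 2 core cytosines it was 18.8 points (18.1% of tiles as low in SHMT2 replicate 2), and with none 15.3 points (19.5%). Core-methylated members had medians of 5 cytosines, 282 lowest calls and a level of 43.7%. These were 13, 780 and 38.9% with a core under 30%, and 4, 189 and 86.9% in unmarked tiles. Their part in the range was not tested.

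No single member passed the test between groups. The binomial regression per tile, fitted on all 64426 tiles with a mean of 5 to 95% and adjusted over all of them, called 0 of the 1100 members tested (lowest adjusted p = 0.881), with 0% of all tiles called. Fisher's exact test on summed calls, which takes no account of replicates, called 211 (background 8.67%), 81 higher and 130 lower in SHMT2. At an unadjusted p under 0.05, 44 members (4.00%, background 1.86%) were higher in SHMT2 and 20 (1.82%, background 1.6%) were lower. Without SHMT2 replicate 3, 180 members passed that p (84 higher, 96 lower), as did 8237 of all 64426 tiles. Without SHMT2 replicate 1, 46 members passed (27 higher, 19 lower), beside 1630 of all tiles. Without vector replicate 2, 39 passed (28 higher, 11 lower), beside 1015 of all tiles. The counts thus moved with the libraries kept, in members and in all tiles. The background by direction is not given for these fits. The groups did not overlap in 77 members with SHMT2 higher (7%, background 3.71%) and in 39 with SHMT2 lower (3.55%, background 5.11%). Without SHMT2 replicate 2 these became 152 higher (13.8%, background 11.1%) and 48 lower (4.36%, background 6.68%).

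The higher member with the smallest p, at chr11:95830001-95831000, overlapped Abi3, which encodes an adaptor of the WAVE actin complex. It was linked to Abi3 by an end of the span, with no stranded start, and lay within the span of Phospho1 as well. It had 70.5%, 76.2% and 70.7% in SHMT2 and 37.0%, 30.1% and 20.8% in vector, from at least 319 calls per library. All SHMT2 libraries lay above all vector libraries, by 43.2 points on average, at an adjusted p = 0.881 in the binomial regression (unadjusted p = 0.000136). Abi3 RNA was 215 ± 15.1 TPM in SHMT2 and 201 ± 37.1 TPM in vector (SD, n = 3 each), with overlapping groups.

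The other 4 higher members by smallest p were likewise apart in every library, which choosing by smallest p favours. At chr5:74126001-74127000, with no gene start near, methylation was 72.0%, 82.4% and 65.2% in SHMT2 and 43.4%, 18.98% and 13.3% in vector, over 6 cytosines all inside the core. The tile overlapping Lipo3, a lipase family gene, at chr19:33589001-33590000, had 44.6% ± 8.98 in SHMT2 and 21.2% ± 3.53 in vector (n = 3 each). The tile at chr10:43667001-43668000 had 80.8% ± 6.28 in SHMT2 and 52.5% ± 5.23 in vector, and that inside Gabbr1, a GABA-B receptor gene, at chr17:37050001-37051000 had 46.2% ± 7.37 in SHMT2 and 28.5% ± 1.88 in vector. Their adjusted p was 0.881 each in the same regression, and their differences were 17.7 to 47.9 points.

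Of the 5 lower members by smallest p, the tile at chr7:55969001-55970000 had 52.4%, 47.8% and 58.8% in SHMT2 and 79.5%, 82.0% and 72.8% in vector, on 3 cytosines. The tile at chr5:114996001-114997000, near the antisense transcript Hnf1aos1, had 36.0% ± 7.34 in SHMT2 and 56.0% ± 13.4 in vector, and the tile at chr8:121586001-121587000 had 32.1% ± 6.09 in SHMT2 and 51.4% ± 7.59 in vector (n = 3 each). A tile beside a 5S ribosomal RNA gene annotated n-R5s141, at chr8:123607001-123608000, had 37.7% ± 1.55 in SHMT2 and 49.5% ± 1.37 in vector. The tile overlapping Zfp748 differed least, at 45.0% ± 1.63 in SHMT2 and 49.1% ± 2.52 in vector. Every SHMT2 library lay below every vector library in the first, the third and the fourth of these, and the groups overlapped at Hnf1aos1 and Zfp748. The adjusted p was 0.881 each.

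Imprinted genes were among those at members. Of 91 imprinted genes listed, 12 had a member within 1000 bases of their start, namely Gnas, Peg10, Sgce, Inpp5f, Kcnq1ot1, Cdkn1c, Plagl1, Commd1, Zrsr1, Peg13, Igf2r and Airn, in 16 tiles. With members inside the span of a listed gene there were 21 tiles, adding Impact and Cdh15. Their level was 34.6% to 51.3%, with a median of 41.1%. Of the 21, 16 were core-methylated. The tiles of Plagl1, Peg10 and Sgce, Cdkn1c and Cdh15, and 1 of Inpp5f, had no measured core cytosine. The mean over the 21 tiles was 41.5%, 42.9% and 40.4% in SHMT2 and 41.0%, 41.8% and 42.0% in vector, and SHMT2 replicate 2 was not low there. All 12 genes follow the list used here, which was drawn up knowing earlier results of these data, and the level itself was set from below by the rule.

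**Figure D3:**
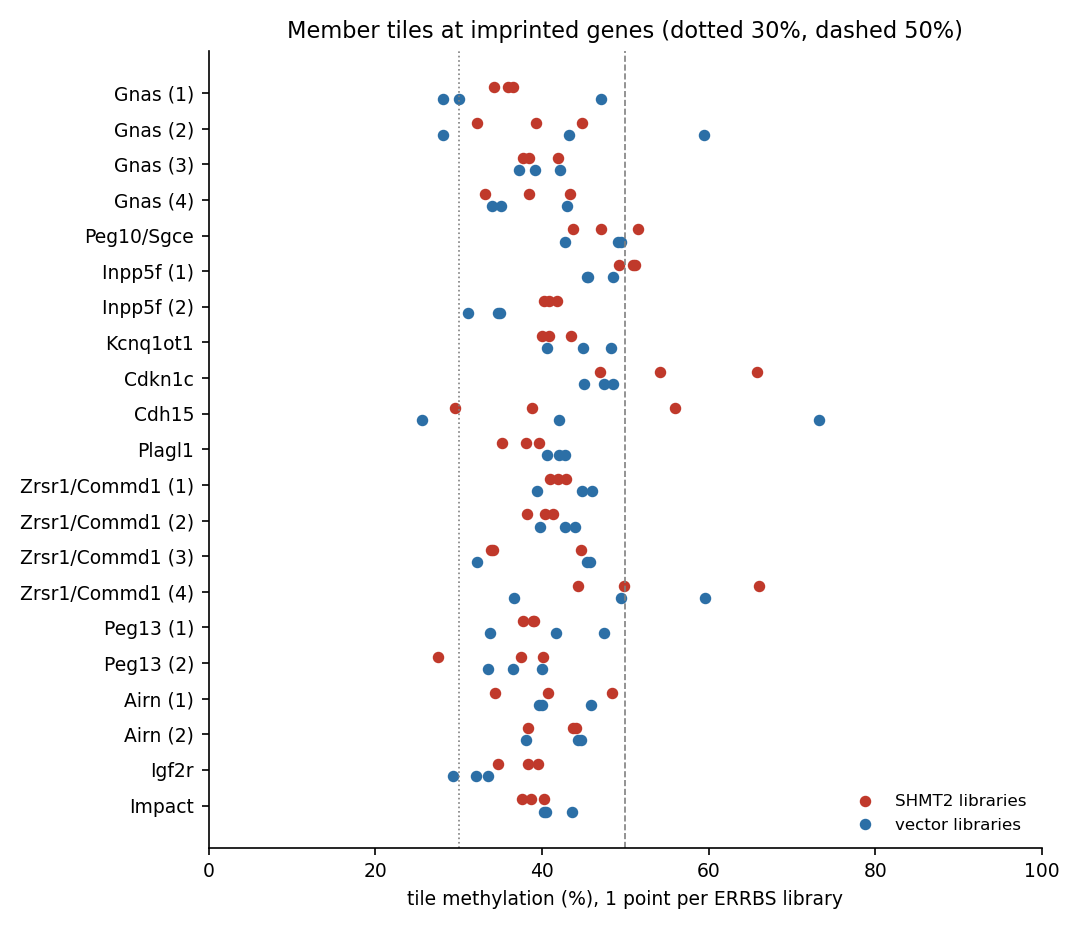
Methylation in percent of the 21 member tiles at imprinted genes, with 1 point per ERRBS library, SHMT2 above vector in each row, and numbered rows for genes with several tiles. Most points lie between 30% and 50% in both groups, and the widest scatter is at Cdh15, from 25.6% to 73.3%.

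Some members lay at control regions known in the mouse to be methylated on the maternal copy. The tiles of Mest, Grb10, Nap1l5, Mcts2 and Slc38a4 over 30% were marked in no list, and those of Nnat in at most 1. The tile on the start of Zrsr1, a splicing factor gene inside an intron of Commd1, at chr11:22972001-22973000, had 38.2%, 40.4% and 41.3% in SHMT2 and 44.0%, 42.7% and 39.8% in vector, over 56 cytosines all in the core and at least 3046 calls per library. Kcnq1ot1, the long antisense transcript of the Kcnq1 cluster, had 40.04%, 43.5% and 40.9% in SHMT2 and 40.6%, 45.0% and 48.3% in vector near its start at chr7:143295001-143296000, again wholly in the core. The Plagl1 tile at chr10:13090001-13091000 had 38.1%, 39.6% and 35.2% in SHMT2 and 42.8%, 40.6% and 42.0% in vector over 34 cytosines. Its core was empty, so these cytosines all lay outside the stretch shared by the 5 lists. Airn, the antisense transcript that silences Igf2r, had 2 tiles with means of 41.2% and 42.0% in SHMT2 and 41.9% and 42.4% in vector.

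Gnas, the stimulatory G protein alpha subunit, held 3 adjoining tiles from chr2:174326001 to 174329000, at 38.3% to 39.4% in SHMT2 and 37.4% to 43.6% in vector, and 1 more near the start of the antisense transcript Gnasas1 at 35.6% in SHMT2 and 35.1% in vector. Peg13, a noncoding transcript within Trappc9, had 2 tiles at 38.6% and 35.0% in SHMT2 and 41.0% and 36.7% in vector. The shared tile of Peg10, a retrotransposon-derived gene, and Sgce, the epsilon sarcoglycan, stood at 47.5% ± 3.91 in SHMT2 and 47.2% ± 3.83 in vector. The tile in Impact, a regulator of translation, on chromosome 18 had 38.8% ± 1.31 in SHMT2 and 41.5% ± 1.85 in vector (n = 3 each). Among the tiles described from Zrsr1 to Impact the groups overlapped in all but those of Impact and Plagl1. There every SHMT2 library was lower (unadjusted p = 0.200 and 0.126 in the binomial regression). At Impact the highest SHMT2 library had 40.23% and the lowest vector library 40.26%. Imprinted tiles with every SHMT2 library higher are given next.

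At 3 of the 21 imprinted tiles every SHMT2 library was higher, and none passed the test. Over all tested tiles the groups did not overlap with SHMT2 higher in 3.71% and with SHMT2 lower in 5.11%. The count at imprinted tiles was not tested against these shares. Igf2r, the receptor that clears IGF2, had 39.5%, 34.7% and 38.3% in SHMT2 and 32.1%, 29.3% and 33.6% in vector at its own start, chr17:12769001-12770000, over 44 cytosines, 7 of them in the core, and at least 2371 calls (unadjusted p = 0.0108, adjusted p = 0.881 in the binomial regression). The tile inside Inpp5f, an inositol phosphatase gene, at chr7:128688001-128689000 had 40.9%, 40.3% and 41.8% in SHMT2 and 35.0%, 34.7% and 31.1% in vector over 13 cytosines (unadjusted p = 0.0164, adjusted p = 0.881). SHMT2 was higher by 5.80 points at the first and by 7.36 points at the second. The other Inpp5f tile, at chr7:128610001-128611000, had 50.5% ± 1.06 in SHMT2 and 46.5% ± 1.76 in vector (n = 3 each), and its 4 cytosines had an SD of 54.0 points. Cdkn1c, the cell cycle inhibitor, had 54.2%, 65.8% and 46.9% in SHMT2 and 47.5%, 45.1% and 48.5% in vector at chr7:143460001-143461000, with overlapping groups, and SHMT2 replicate 2 was the highest.

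Most imprinted tiles were even from cytosine to cytosine. The SD between the cytosines of a tile was under 10 points in 20 of the 21, against 41.1% of the 1116 other members. With 7 or more cytosines the figures were 18 of 18 against 27.7% of 379 tiles. The range over the 6 libraries had a median of 10.2 points, against 19.6 points, but reached 47.7 points at Cdh15 and 31.3 points at 1 Gnas tile. That median is near those of members with a core under 30% (9.38 points) and of unmarked tiles (10.9 points). H3K4me1, a mark of enhancers and of the flanks of active starts, had a peak in all 4 lists at 3 of the 21 tiles and in no list at 6, against 60.9% of the other members with a peak in all 4. No test was made of these shares, since the list was chosen with results known.

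**Figure D4:**
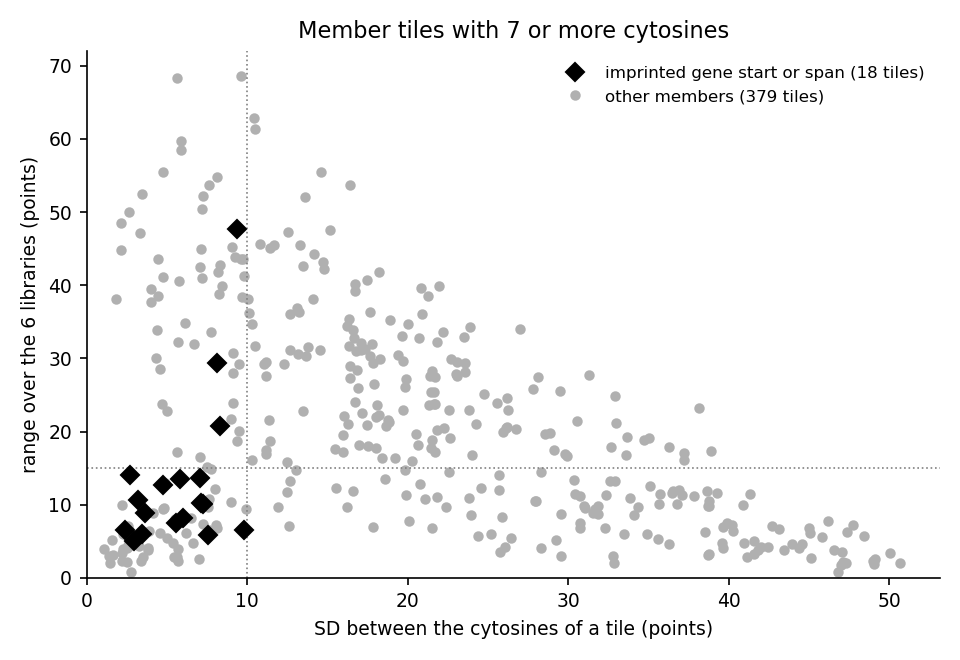
SD between the cytosines of a tile against the range over the 6 ERRBS libraries, both in percentage points, for the members with 7 or more measured cytosines. The 18 imprinted tiles (black diamonds) lie left of 10 points on the horizontal axis and 15 of them lie under 15 points on the vertical axis, whereas the 379 other members (grey) spread over both.

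When members were asked to be even in this way, with at least 7 cytosines, an SD under 10 points, a range under 15 points and a level under 60%, 16 tiles remained and 15 of them were at imprinted genes. These limits were set after the values were seen. The remaining tile lay 104 bases from the start of Zfp180, a zinc finger gene outside the list, at chr7:24082001-24083000. It had 40.4%, 36.7% and 35.2% in SHMT2 and 39.9%, 36.9% and 37.8% in vector over 9 core cytosines with an SD of 1.60 points between them. Zfp180 RNA was 47.1 ± 5.32 TPM in SHMT2 and 48.2 ± 4.16 TPM in vector (n = 3 each).

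The rest of the imprinted list shows what the rule left out. Of the 91 genes, 29 had a covered tile marked in all 5 lists but under 30%. Another 23 had a tile over 30% marked in fewer lists or in none. Most of these 23 genes had no peak in any list at a covered tile. A further 9 had tiles that met neither condition, 15 had no covered tile and 3 were not in the annotation used here. Among the 23, the tile of Peg3 and Usp29 at chr7:6730001-6731000 had 51.4% and that of Snrpn and Snurf at chr7:60005001-60006000 had 47.2%, and both lacked a peak in the list of vector replicate 4 alone. A germline list of 44 genes often methylated in somatic cells gave no member: 29 had a covered tile, 5 of them a marked one, and 0 a member.

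The tiles in the strongest H3K4me3 peaks were mostly measured outside the shared peak. At Tmem9, a lysosomal membrane protein gene, chr1:136019001-136020000 had 97.4% on average in peaks at a mean percentile of 98.3, with 220 core bases and no measured core cytosine. A tile at chr17:83863001-83864000 had 91.6% ± 4.93 in SHMT2 and 89.0% ± 2.56 in vector, and the tile near Sap30l, a Sin3 complex gene, had 62.8% ± 3.20 in SHMT2 and 64.6% ± 11.9 in vector (n = 3 each). The Pitpnc1 tile, whose 4 core cytosines were low, also belonged to this set, and the tiles at Tmem9, on chromosome 17 and near Sap30l had no core cytosine measured.

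The 5 highest members were all of the class with no core cytosine, at 96.9% to 97.4%. They were the tiles by Timm13 (a mitochondrial import gene, inside Lmnb2), Rhot2, Pex14 and Tmem9, and 1 tile on chromosome 5 with no gene start near. At the other end, the 3 members nearest the threshold, near Fbxo11, near Camkk2 and at chr1:85112001-85113000, had 30.0063% to 30.0261%. Just outside it, the tile at chr3:84229001-84230000 had 29.9449% and the tile inside Tmem150c at chr5:100079001-100080000 had 29.8037%. The Tmem150c tile had 66.1%, 23.4% and 19.9% in SHMT2 and 30.6%, 18.2% and 20.6% in vector, so the libraries of each group lay on both sides of the threshold.

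Genes with a start inside a member had lower median TPM than genes starting in marked tiles under 30%, and higher than the median gene of the table, which had 0.479 TPM in SHMT2 and 0.587 TPM in vector. The 724 genes with a start within 1000 bases of a member had a median of 11.7 ± 0.455 TPM in SHMT2 and 11.3 ± 0.484 TPM in vector (n = 3 each, 558 genes in the table). The 107 genes whose start lay inside a member had a median of 1.86 ± 0.412 TPM in SHMT2 and 2.44 ± 0.504 TPM in vector. Genes whose start lay inside a marked tile under 30% had 15.4 ± 0.263 TPM in SHMT2 and 15.1 ± 0.532 TPM in vector (9773 genes). Where no stranded start was annotated, either end of the span was taken. Stranded starts lay in members for 87 of 177 annotated genes, and in marked tiles under 30% for 8855 of 11149. The part of such ends in these medians was not tested. Of the genes near members, the 431 that also had a marked tile under 30% within 1000 bases had 14.4 TPM in SHMT2 and 14.5 TPM in vector, and the 127 with none had 1.84 TPM in SHMT2 and 2.23 TPM in vector.

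These TPM levels need care between genes. Chromosome 9 held 19.3% of all TPM with 5.56% of the genes, chromosome 15 held 9.30% with 3.66%, and Gapdh was listed at 1.80 to 4.70 TPM, so the deposited scale was uneven between genes. Ranked within its own chromosome, the median percentile was 55.9 for genes starting inside members, 70.4 for genes within 1000 bases of members and 73.6 for genes starting inside marked tiles under 30%. Without chromosomes 9 and 15 the medians were 1.97 TPM in SHMT2 and 2.39 TPM in vector for starts inside members, against 14.9 TPM in SHMT2 and 14.5 TPM in vector for starts inside marked tiles under 30%. The order of the sets was the same on both scales.

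**Figure D5:**
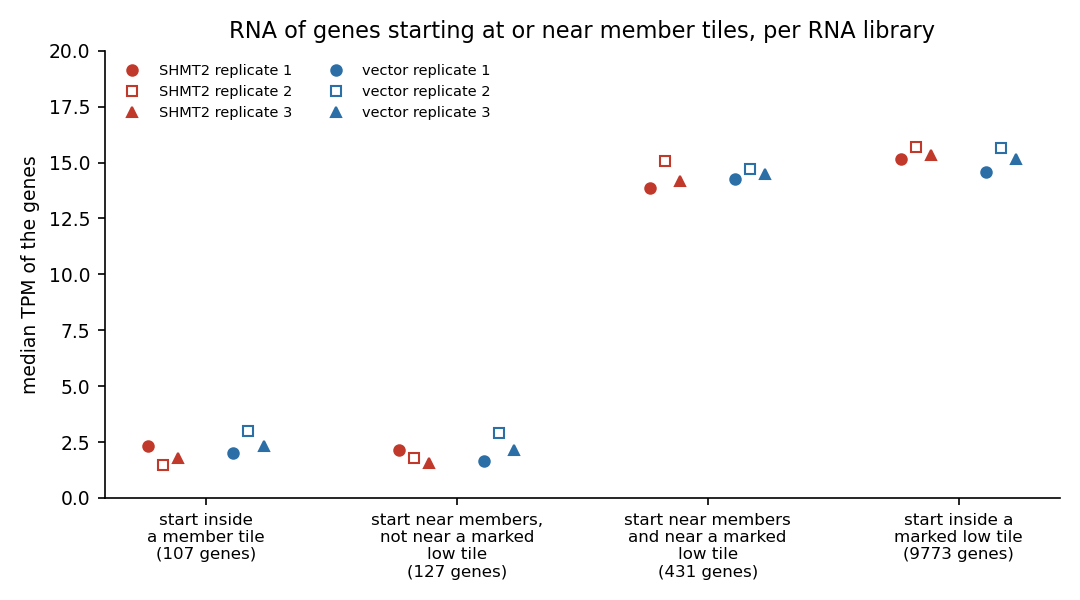
Median TPM of 4 sets of genes in each RNA library, with SHMT2 left of vector. Genes that start inside a member, or near members with no marked low tile beside them, have medians of 1.49 to 2.99 TPM, and the 2 other sets 13.8 to 15.7 TPM, in all 6 libraries.

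Some genes were strongly expressed with a start inside a member. Apoe, the apolipoprotein E gene, had 1767, 1714 and 1099 TPM in SHMT2 and 1376, 1742 and 1582 TPM in vector. Its tile at chr7:19698001-19699000, wholly measured in the core over 24 cytosines, had 61.4%, 53.9% and 39.3% in SHMT2 and 36.3%, 15.9% and 18.8% in vector, from at least 1368 calls. The SHMT2 libraries lay above the vector libraries by 27.9 points (unadjusted p = 0.0125, adjusted p = 0.881 in the binomial regression), while the RNA overlapped. This tile was singled out after its values were seen, and the high myeloid transcripts of vector RNA replicates 2 and 3 stand beside it, whose part was not tested.

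Other starts inside members differed in kind. Rpl22, a ribosomal protein gene, had 1048, 883 and 998 TPM in SHMT2 and 606, 557 and 728 TPM in vector, and its tile stood at 66.0% ± 22.2 in SHMT2 and 66.7% ± 2.52 in vector with no core cytosine. Csk, the kinase that restrains Src kinases, had 278 ± 4.80 TPM in SHMT2 and 217 ± 36.0 TPM in vector, beside a tile at 91.5% ± 2.12 in SHMT2 and 91.7% ± 0.876 in vector. Tmcc2 had 20.4, 10.4 and 29.6 TPM in SHMT2 and 11.1, 775 and 184 TPM in vector, high in the same vector libraries as the erythroid markers. In the table of linked genes the 10 with the highest TPM were Apeh, Apoe, Gng2, Mrpl3, Rpl22, Acaa1a, Sdf4, S1pr2, Dmxl1 and Atp5sl, and 4 of these lie on chromosome 9.

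Imprinted genes with members ranged from silent to abundant. Gnas had 198 ± 7.61 TPM in SHMT2 and 166 ± 14.9 TPM in vector, with no overlap, and Commd1, a copper and NF-kB regulator, had 42.2 ± 2.23 TPM in SHMT2 and 31.3 ± 5.85 TPM in vector, also with no overlap. Igf2r had 51.1 ± 6.59 TPM in SHMT2 and 57.5 ± 18.8 TPM in vector. Zrsr1 had 54.4 ± 15.9 TPM in SHMT2 and 72.0 ± 30.04 TPM in vector, and Peg13 had 34.3 ± 1.35 TPM in SHMT2 and 41.7 ± 11.6 TPM in vector. Kcnq1ot1 had 1.61 ± 0.144 TPM in SHMT2 and 2.30 ± 0.333 TPM in vector, and every SHMT2 library was the lower. Plagl1, Peg10, Sgce, Cdkn1c and Airn averaged under 1 TPM in both groups, although all 5 lists had a peak at their tiles. None of those tested passed (limma adjusted p from 0.247 to 0.795). Over all genes tested the groups did not overlap with SHMT2 higher in 16.9% and with SHMT2 lower in 8.26%.

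No gene linked to a member passed the test between groups either. limma on log2(TPM + 1), adjusted over 11117 genes, called 0 of 444 linked genes (lowest adjusted p = 0.204, 0% of all genes called). At an unadjusted p under 0.05, 61 (13.7%, background 11.3%) were higher in SHMT2 and 16 (3.60%, background 5.4%) were lower. Leaving out SHMT2 replicate 3 gave 31 higher and 2 lower, leaving out SHMT2 replicate 2 gave 36 and 9, and leaving out vector replicate 1 gave 78 and 47. The shares over all genes at that p were not counted in these fits, so these counts cannot be set against a background. The groups did not overlap in 90 with SHMT2 higher (20.3%, background 16.9%) and 27 with SHMT2 lower (6.08%, background 8.26%). The median log2 fold change was 0.06 for linked genes and 0.02 for all genes tested. Without vector RNA replicate 1, 28 linked genes passed (6.31%, background 7.6%), 19 higher and 9 lower, and that fit keeps only the vector libraries with high erythroid and myeloid markers.

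The 5 higher linked genes with the smallest p were Timm13, Acaa1a, Rgs10, Snrpb and Rpl22. Timm13, which chaperones proteins between the mitochondrial membranes, had 63.3, 66.9 and 60.7 TPM in SHMT2 and 46.5, 37.4 and 36.7 TPM in vector, a log2 fold change of 0.66 (SE 0.11, limma adjusted p = 0.204). Acaa1a, a peroxisomal thiolase, had 654 ± 17.8 TPM in SHMT2 and 455 ± 39.7 TPM in vector, and Rgs10, a G protein regulator, had 30.3 ± 1.62 TPM in SHMT2 and 21.1 ± 1.75 TPM in vector. Snrpb, a core protein of the spliceosome, had 57.3 ± 1.53 TPM in SHMT2 and 42.7 ± 2.42 TPM in vector. Their tiles stood at 46.9% to 97.0% and the groups overlapped in each tile but that of Acaa1a, which had 94.2% ± 1.90 in SHMT2 and 90.3% ± 0.351 in vector.

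The 5 lower ones were Pbx3, Fbxo11, Per1, Rnf111 and Proser1. Pbx3, a homeobox factor, had 7.44 ± 0.532 TPM in SHMT2 and 10.8 ± 1.05 TPM in vector. Fbxo11, the ubiquitin ligase subunit that degrades BCL6, had 61.6, 63.5 and 66.0 TPM in SHMT2 and 81.0, 83.3 and 105 TPM in vector, a log2 fold change of -0.48 (SE 0.12, limma adjusted p = 0.204). Per1, a clock gene, had 91.2 ± 26.6 TPM in SHMT2 and 151 ± 28.7 TPM in vector, and its tile had 30.6% ± 13 in SHMT2 and 34.5% ± 3.18 in vector. Rnf111, a ubiquitin ligase, and Proser1, listed as 2810046L04Rik, had log2 fold changes of -0.27 and -0.34. Every SHMT2 library lay below every vector library in RNA for all 5, and none passed. Choosing genes by smallest p favours such separation.

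The writers and readers of both marks did not pass as single genes. Of 22 genes of imprint and DNA methylation maintenance, 17 were tested and 0 called, with 2 higher and 1 lower at an unadjusted p under 0.05 and a median log2 fold change of 0.00, against 0.02 over all genes. Of all genes tested, 11.3% were higher and 5.4% lower at that p, so these counts are near the background. The 3 genes past that p are given next. Trim28, the cofactor through which zinc finger proteins keep imprints, had 225 ± 4.00 TPM in SHMT2 and 189 ± 12.5 TPM in vector, and Hells, a helicase needed for DNA methylation, had 14.7 ± 0.344 TPM in SHMT2 and 8.91 ± 3.16 TPM in vector. Tet3, which oxidises methylcytosine, had 66.5 ± 2.96 TPM in SHMT2 and 97.3 ± 11.6 TPM in vector. Zfp57, the best known imprint keeper, was at most 0.114 TPM in any library. Zfp445, another zinc finger gene of that list, had 2540 ± 133 TPM in SHMT2 and 2955 ± 211 TPM in vector (limma adjusted p = 0.316). Dnmt1, the maintenance methyltransferase, had 90.9 ± 9.34 TPM in SHMT2 and 84.8 ± 17.2 TPM in vector (limma adjusted p = 0.749). Of 29 genes of H3K4 methylation and CpG reading, 25 were tested and 0 called, with 3 higher and 2 lower at that unadjusted p, again near the shares of all genes. Cxxc1 had 60.2 ± 3.11 TPM in SHMT2 and 54.7 ± 4.34 TPM in vector.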

How the data were processed

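The submitters' processing notes name Bismark and Bowtie2, BWA, MACS2 and STAR and the build mm10, with no role or order. The authors deposited 1 ERRBS table per library giving at each cytosine its coverage, a count, and the percent methylated, cytosines under 10 calls being absent from the files. The authors deposited 1 peak list per library and mark, with a fold enrichment, a −log10 p and q and a score per peak, and 1 table of TPM per RNA library. The depth of the RNA and chromatin libraries is unknown from these files.

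Tiles are aligned blocks of 1000 bases. A tile's level is the mean over its cytosines measured in all 6 libraries, and its lowest number of calls in any library was 30 in the weakest member (median 243). Groups were compared by a quasi-binomial regression of the calls per tile with moderated dispersion and a two-sided F test, in Python 3.11.15 with scipy 1.17.1, on tiles with a level of 5 to 95%, and adjusted by Benjamini-Hochberg over all of them. Tiles were called at an adjusted p below 0.05 with 10 points or more between groups. RNA was tested with limma 3.58.1 in R 4.3.3 on log2(TPM + 1) for genes with a mean of 1 TPM or more, and fold changes are on that scale, which understates low genes. On simulated data the tile test recovered 55% of tiles moved by 30 points, and limma recovered 52% of genes changed 2-fold and 100% changed 4-fold. The simulated spread was set by hand, so the share of real changes missed here is not known from it. Genes were linked by starts within 1000 bases, or by either end of the span where no stranded start was annotated. Promoter sequences came from RefSeq.

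The members and the lists were chosen with earlier results of these data known. Tiles named are those at imprinted and germline genes, the 5 smallest p in each direction, the 5 with the strongest peaks, the 5 highest levels and the 3 nearest the threshold on either side. Genes named are those linked to these tiles, the 10 of highest TPM and the 5 smallest p in each direction. Apoe, Csk, Tmcc2, Zfp180 and the Kbtbd4 window, and the genes named from the maintenance and reading lists, were picked after their values were seen. Some tiles that the rule selects are not reported here.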

Additional observations from a re-analysis of the deposited data

How the results depend on the processing

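No called value changed direction, since nothing was called, but the mean difference over members, -0.55 points, ran from -1.80 to 1.75 points when 1 ERRBS library was left out, the highest being without SHMT2 replicate 2. The number of members, 1137, became 647 with 5 or more cytosines per tile, 250 with 500 bases or more inside peaks, and 341 when only cytosines inside the shared interval counted, an alternative chosen after seeing the data. It ran from 1117 to 1284 when 1 library or list was left out. The share at the edge, 87.8%, became 58.0% with 500 bases inside peaks and 73.3% with the shared interval only, and ran from 88.0% to 90.4% without 1 H3K4me3 list, the highest being without SHMT2 replicate 4. The median TPM of linked genes over all 6 libraries became 10.6 at a coverage of 20, 9.58 with 5 or more cytosines, 18.8 with 500 bases inside peaks, 12.9 at a −log10 q of 10 or more, 12.4 with the shared interval only, 2.15 with starts inside the tile and 12.3 with starts within 5000 bases, and ran from 11.4 to 11.6 when 1 RNA library was left out. With calls summed per group and Fisher's exact test, 211 members were called. The other alternatives of the tile test called 0. Linked genes called ran from 0 to 28 when 1 RNA library was left out, the 28 without vector replicate 1.

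With a replicate block, 0 members and 0 linked genes were called. At an unadjusted p under 0.05 in that tile regression there were 69 of 1100 members and 1834 of all 64426 tiles. Deviations of libraries with the same number correlated at -0.06, -0.29 and -0.06 in ERRBS and at -0.42, -0.33 and -0.06 in RNA. Those of libraries with other numbers ran from -0.21 to 0.28 in ERRBS and from -0.15 to 0.40 in RNA. With 3 libraries per group these values cannot show whether equal numbers pair the samples. Members with few cytosines and few calls limit the precision, and the number of RNA reads behind each TPM is unknown.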
